A study of Mus musculus with 24 samples.

Results

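The 10 genes described here are the brown fat genes linked to PRDM16: Ucp1, Ppargc1a, Pparg, Cebpb, Ebf2, Cidea, Elovl3, Cox7a1, Tbx15 and Myod1. They were chosen by name, and all 10 were found among the 21887 protein-coding genes of the RefSeq table of the GRCm38.p6 assembly, whose coordinates are those of mm10. For each gene, every called peak over the gene span and within 2500 bp or 10 kb of a gene end was listed in 24 peak lists. The lists came from CUT&RUN, in which an antibody-tethered nuclease cuts and releases the chromatin beside a bound protein or mark.

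The antibodies were against PRDM16, H3K4me1 and H3K4me2. The cells were mouse ES cells, kept with LIF on Matrigel, and embryoid bodies (EB) at day 6, the clumps that ES cells form as they differentiate. Each antibody and stage was run in wild type and in Prdm16 KO cells, all of C57BL/6 background, which gives 12 groups of 2 libraries. The labels name neither the allele nor the clones of the KO, and leave unsaid whether the 2 libraries of a group are separate cultures. P-values here cover the spread between the libraries alone, and that spread may be technical. Peak lists do not test a deletion, so the KO labels were not checked here.

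PRDM16 is a zinc finger protein that drives brown fat cell identity and holds back muscle and white fat genes. It acts in brown fat precursors with C/EBPβ (Cebpb), PPARγ (Pparg), EBF2 and the coactivator PGC-1α (Ppargc1a), upstream of thermogenic genes such as Ucp1, Cidea, Elovl3 and Cox7a1. H3K4me2 lies at promoters and enhancers, and H3K4me1 is richest at enhancers and at the flanks of active promoters. ES cells and EB are not fat cells, so the lists show which of these genes carry H3K4 methylation in cells outside the fat lineage.

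H3K4me2 lists held 13818 to 32874 peaks, H3K4me1 lists 5990 to 15435 and PRDM16 lists 146 to 586. Read totals were not analysed here, so depth is unknown and a missing peak is not a missing mark. The EB KO lists of H3K4me1 were the shortest, with 8943 and 5990 peaks against 14082 and 13260 in wild type. The labelled cell types were checked against markers in the wild-type H3K4me2 lists. Both ES libraries had a peak no more than 2500 bp from a gene end at 2 of 8 ES cell markers (Klf4 and Zfp42) and at 5 of 8 markers of differentiated EB. Both EB libraries had one at 2 of 8 ES cell markers (Klf4 and Tfcp2l1) and 1 of 8 EB markers (Mesp1). Pou5f1, Nanog and Sox2 were in neither of these wild-type H3K4me2 sets, so those peaks do not separate the stages. In EB, however, Pou5f1 had H3K4me2 in both KO libraries and was KO-only for H3K4me1, and Nanog had H3K4me1 in all 4 EB lists and no ES list. Fibroblast or feeder markers had peaks at 3 of 6 genes in each stage, muscle markers at 4 of 6, and adipocyte markers at 1 of 6 in ES cells (Plin1) and 0 of 6 in EB. The part of other cell types, or of the mix of cells in KO EB, in the values below was not tested.

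RefSeq promoter windows, from 250 bases before to 50 after a transcription start, were listed for 5 of the 10 genes. The 5 windows below run from CG-rich to CG-poor, the feature along which their H3K4me2 differed. CG dinucleotides are in capitals, sequences are from RefSeq on GRCm38.p6, and all lie on the + strand. The Cebpb window is at chr2:167688665-167688964, the first Pparg window at chr6:115360894-115361193, the Ucp1 window at chr8:83290098-83290397, the Cox7a1 window at chr7:30183921-30184220 and the third Pparg window at chr6:115421816-115422115.
Cebpb: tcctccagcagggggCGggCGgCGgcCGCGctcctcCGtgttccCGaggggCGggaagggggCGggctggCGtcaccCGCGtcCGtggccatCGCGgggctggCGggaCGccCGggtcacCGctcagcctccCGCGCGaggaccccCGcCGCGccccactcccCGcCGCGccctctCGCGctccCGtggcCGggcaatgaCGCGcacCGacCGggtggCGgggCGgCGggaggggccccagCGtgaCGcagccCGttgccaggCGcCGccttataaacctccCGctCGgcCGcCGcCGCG
Pparg start 1: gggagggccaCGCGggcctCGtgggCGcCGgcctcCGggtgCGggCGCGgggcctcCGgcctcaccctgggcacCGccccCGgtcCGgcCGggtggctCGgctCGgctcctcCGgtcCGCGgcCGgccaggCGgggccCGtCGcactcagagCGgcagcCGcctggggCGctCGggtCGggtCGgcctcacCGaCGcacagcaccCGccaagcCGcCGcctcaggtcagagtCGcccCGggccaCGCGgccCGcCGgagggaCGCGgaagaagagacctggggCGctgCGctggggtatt
Ucp1: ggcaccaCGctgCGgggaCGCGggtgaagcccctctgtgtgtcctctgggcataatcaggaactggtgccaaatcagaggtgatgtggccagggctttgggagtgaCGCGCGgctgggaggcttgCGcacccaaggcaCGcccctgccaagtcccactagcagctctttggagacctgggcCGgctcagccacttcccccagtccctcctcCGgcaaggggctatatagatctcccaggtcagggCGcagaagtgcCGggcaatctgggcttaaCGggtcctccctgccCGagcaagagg
Cox7a1: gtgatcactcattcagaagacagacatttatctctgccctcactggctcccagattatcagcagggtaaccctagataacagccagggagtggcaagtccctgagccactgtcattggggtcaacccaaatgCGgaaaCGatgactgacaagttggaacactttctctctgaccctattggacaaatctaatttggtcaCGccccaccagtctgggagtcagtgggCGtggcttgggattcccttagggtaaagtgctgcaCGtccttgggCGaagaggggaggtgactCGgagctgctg
Pparg start 3: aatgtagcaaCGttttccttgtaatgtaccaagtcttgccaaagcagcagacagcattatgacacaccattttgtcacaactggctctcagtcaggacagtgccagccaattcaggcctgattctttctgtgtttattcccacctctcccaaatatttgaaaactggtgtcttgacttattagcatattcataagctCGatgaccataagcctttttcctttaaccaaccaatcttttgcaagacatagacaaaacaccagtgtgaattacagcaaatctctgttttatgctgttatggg

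The Cebpb window held 50 CG dinucleotides and the first Pparg window 44, and both overlapped a peak in 8 of 8 H3K4me2 lists. The second Pparg window, at chr6:115362099-115362398, held 13 and the Ucp1 window 15, also with 8 of 8 lists. The Cox7a1 window held 7 and overlapped a peak in 4 lists, all from EB. The third Pparg window held 2 and the Ppargc1a window, at chr5:51567676-51567975 on the - strand, held 5, and neither overlapped a peak in any of the 16 H3K4me lists. H3K4me2 at these 7 windows was called in 8 lists at the 4 with 13 or more CG dinucleotides and in 4 or fewer at the other 3. Over all 21263 promoter windows the median was 13 CG dinucleotides, and 29.8% overlapped a peak in all 8 H3K4me2 lists. That share was 1.91% among windows with 0 to 4 CG dinucleotides, 15.8% with 5 to 9, 45.2% with 10 to 19, 49.2% with 20 to 29 and 47.7% with 30 or more. H3K4me1 overlapped the first Pparg window in 3 lists, the second in 5, the Ucp1 window in 1 and the other 4 windows in 0.

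**Figure D1:**
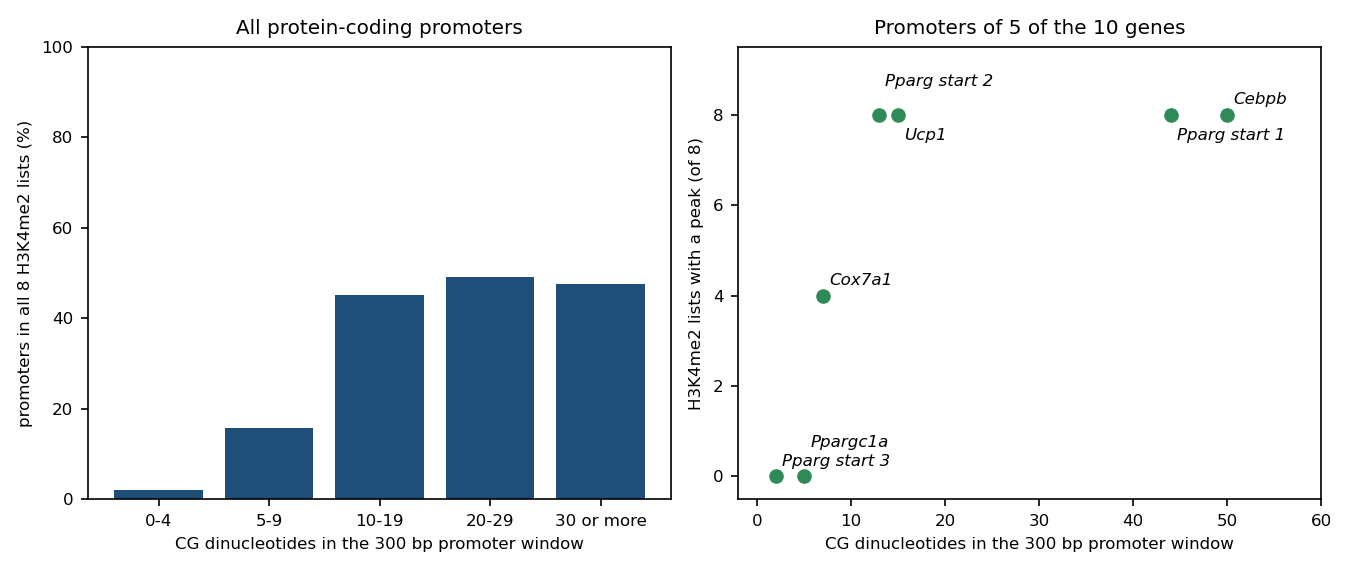
CG dinucleotides per 300 bp promoter window (x axes) against H3K4me2 peaks. Left, bars give the share (%) of all 21263 windows with a peak in all 8 H3K4me2 lists, from 1.91% for 0 to 4 CG dinucleotides to 47.7% for 30 or more; right, each point is 1 of the 7 windows of 5 of the brown fat genes, with the number of H3K4me2 lists (of 8) that overlap it, from 0 at the windows with 2 and 5 CG dinucleotides to 8 at those with 13 or more.

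Letters of known factor motifs were searched on both strands of the same windows. The PPAR core motif AGGTCA lay at -28 from the first Pparg start, at -9 from the second and at -14 from that of Ucp1, and 14.7% of all windows held it. TTGCNNAA, the C/EBP motif, lay in the third Pparg window at 2 places, and 10.2% of windows held it. CCCNNGGG, the EBF motif, lay in the Cebpb window, and 15.6% of windows held it. The E-box CANNTG, read by MYOD1 and its relatives, lay at 6 places in the Ppargc1a window, at 1 in each of Pparg windows 2 and 3 and at 1 in the Cox7a1 window. It was found in 69% of all windows. TATAAA lay in the Cebpb window and the second Pparg window, against 12.6% of all windows, and the cAMP response motif TGACGTCA (2.23% of windows) in none of the 7. CANNTG, CCCNNGGG and TGACGTCA read the same on both strands, and no overlap between motifs was removed. These matches describe letters only, and no PRDM16 peak lay at any of these windows.

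H3K4me2 was called near most of the 10 genes at both stages and in both genotypes. A gene is called marked in a group when both of its libraries had a peak no more than 2500 bp from a gene end. In wild-type ES cells 8 of the 10 were marked, all but Ebf2 and Cox7a1, beside 51.2% of all protein-coding genes. The same 8 were marked in KO ES cells, beside 52.8%. In EB 8 of the 10 were marked in wild type (49.1% of all genes) and the same 8 in KO (48.8%), now all but Ebf2 and Elovl3. In all 8 H3K4me2 lists 7 of the 10 had a peak (37.4% of all genes): Ucp1, Ppargc1a, Pparg, Cebpb, Cidea, Tbx15 and Myod1. Among the higher-scoring 50% of each list the EB numbers were 4 in wild type and 3 in KO, and the ES numbers stayed at 8 in each genotype. Shares of all genes at that setting were not computed. Shares of all genes are given for scale only, since the 10 differ from other genes in length and CG content.

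H3K4me1 was called near fewer of them, and the number differed between groups. In ES cells 6 of the 10 were marked in wild type, beside 13.9% of all genes: Ppargc1a, Pparg, Ebf2, Elovl3, Tbx15 and Myod1. In KO ES cells 4 were marked (12.4% of all genes), the same without Ebf2 and Myod1. In EB 3 were marked in wild type (9.75%), Ppargc1a, Pparg and Cidea, and 0 in KO (4.08%). With equal list lengths per antibody the numbers were 5 in wild-type and 1 in KO ES cells, and 1 in wild-type and 0 in KO EB. Shares of all genes at this setting were not computed. No gene of the 10 had H3K4me1 in all 8 lists, as 0.927% of all genes did, and Ppargc1a and Pparg came nearest with 7.

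**Figure D2:**
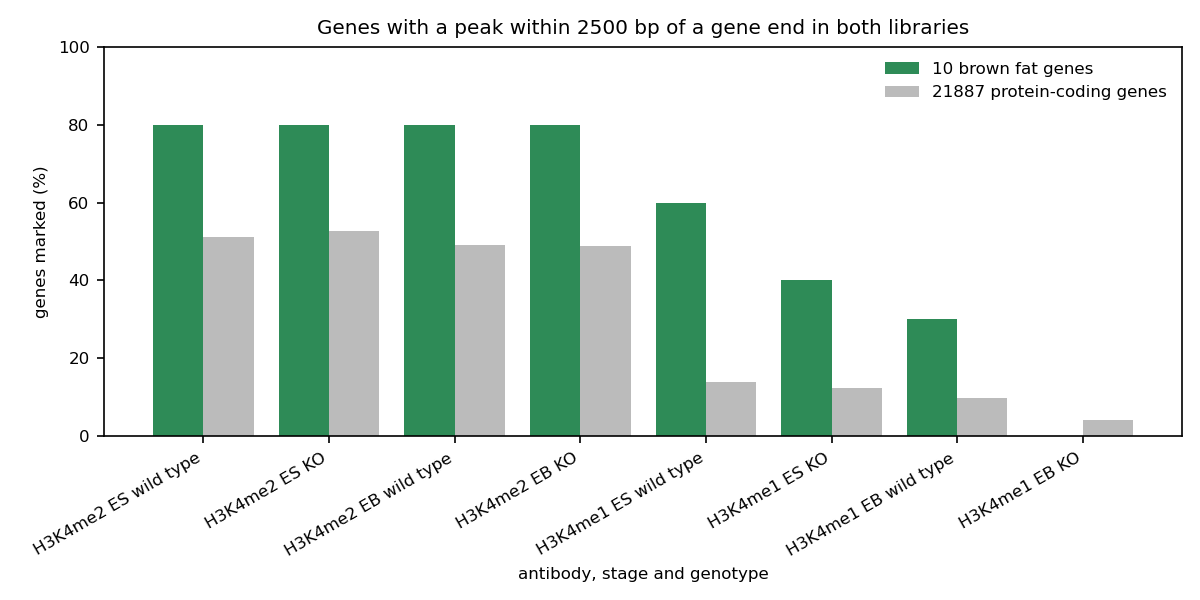
Share of genes (y axis, %) marked in both libraries of each group, with a peak no more than 2500 bp from a gene end, for each antibody, stage and genotype (x axis). Green bars are the 10 brown fat genes and grey bars the 21887 protein-coding genes: H3K4me2 stands at 8 of 10 genes in its 4 groups, and H3K4me1 at 6, 4, 3 and 0 of 10.

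**Figure D3:**
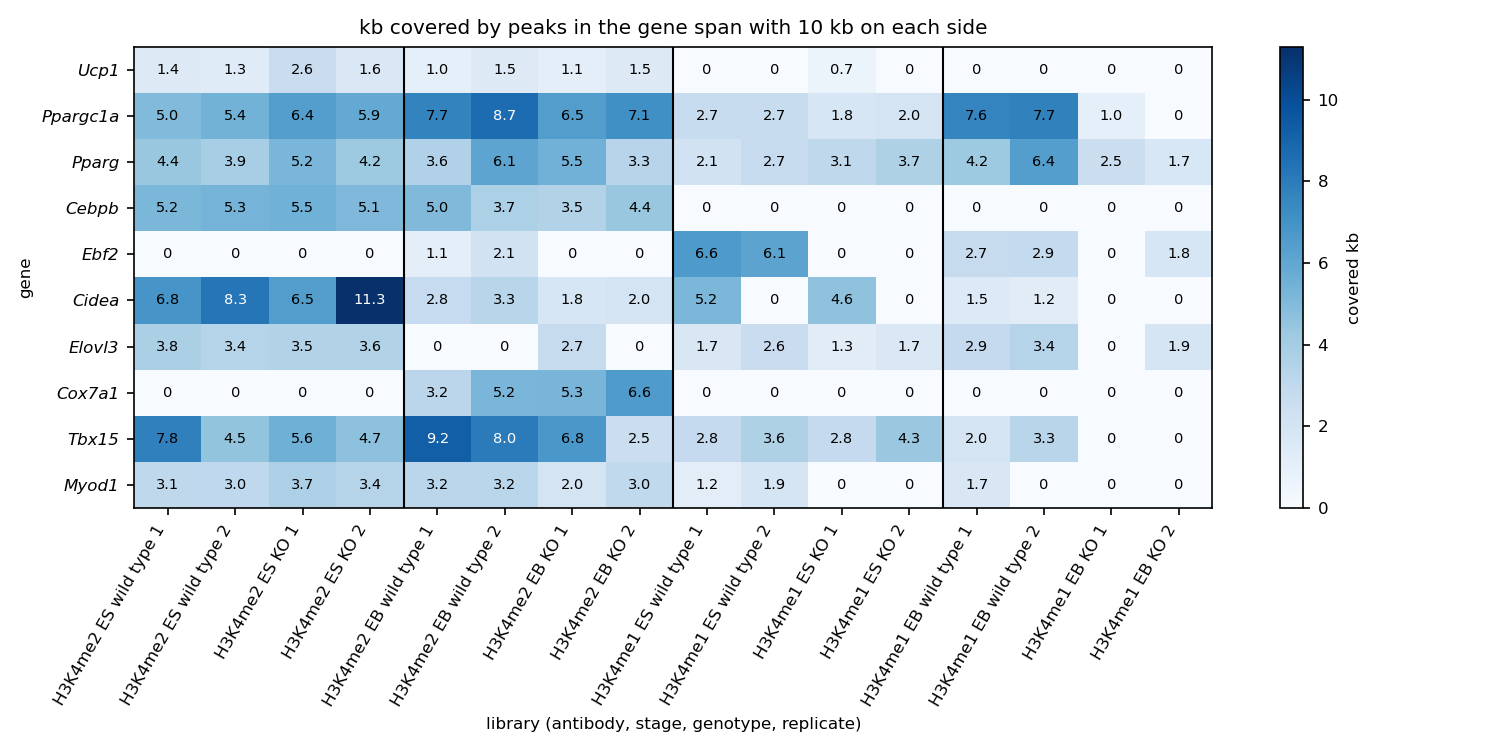
Kilobases covered by peaks in the gene span with 10 kb on each side, for each of the 10 genes (y axis) in each of the 16 H3K4me libraries (x axis); darker blue means more kb. Cebpb and Cox7a1 are at 0 in every H3K4me1 library, Ebf2 is at 0 in both H3K4me1 KO libraries of ES cells, and Ppargc1a is highest in wild-type EB for both marks.

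Genotype was compared at single genes by presence of peaks, then by length of DNA covered. A gene with a mark in each wild-type library and no KO library of a set is called wild-type-only, and the reverse KO-only. For H3K4me2, 0 of the 10 were wild-type-only and 0 KO-only in ES cells, beside 1.22% and 1.91% of all genes. In EB they were again 0 and 0, beside 1.64% and 2.05%. For H3K4me1, 2 of the 10 were wild-type-only in ES cells, Ebf2 and Myod1 (1.79% of all genes), and 0 were KO-only (1.31%). In EB 1 was wild-type-only, Cidea (4.14%), and 0 were KO-only (0.58%). With 2 libraries in each group the smallest two-sided exact permutation p for 1 mark at 1 stage is 0.33, so these calls stand as descriptions.

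Ebf2 encodes a transcription factor that marks brown fat precursors and opens chromatin at brown fat genes. Its gene spans 198 kb on chromosome 14 (67233292 to 67430952). In wild-type ES cells H3K4me1 formed a wide peak over the lower-numbered gene end, of 6.63 kb in replicate 1 and 6.14 kb in replicate 2. Both KO ES libraries had 0 H3K4me1 peaks within 10 kb of the gene or in it. The wild-type peaks ranked at the 58.4 to 62 percentile of score in their lists, and the 4 lists were of like length, with 15435 and 12746 peaks in wild type and 14945 and 13901 in KO. H3K4me2 had no peak at Ebf2 in any of the 4 ES lists. Leaving out a library only drops a condition of the wild-type-only call and cannot undo it. It was therefore no check of this difference.

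In EB the methylation of Ebf2 lay elsewhere. Both wild-type libraries had a peak of each mark inside the gene span, 110 kb from the lower-numbered end (67342931 to 67346162). H3K4me1 covered 2.74 kb in replicate 1 and 2.91 kb in replicate 2, and H3K4me2 covered 1.10 and 2.15 kb. By score the replicate 1 peaks were near the floor of their lists, at the 7.19 percentile for H3K4me1 and 6.31 for H3K4me2, against 64.5 and 41 in replicate 2. Neither KO library had a peak of either mark at this site. Counted over the gene span, Ebf2 was the 1 wild-type-only gene of the 10 for H3K4me2 in EB, beside 1.8% of all genes. The only Ebf2 peak in a KO list was an H3K4me1 peak of 1.78 kb in EB replicate 2, at 67271435 to 67273214. The H3K4me1 EB KO lists were shorter, as given above, and their part in the absence of a peak was not tested.

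Myod1 encodes the master regulator of muscle fate, the lineage that PRDM16 opposes in brown fat precursors. The gene is short (2.62 kb, chromosome 7, 46376474 to 46379092), and H3K4me2 was called over it in all 8 lists, as 1 peak in 7 of them. The covered length was 3.08 and 3.03 kb in wild-type ES cells and 3.68 and 3.39 kb in KO, so the KO values were higher without overlap. In EB it was 3.18 and 3.24 kb in wild type and lower in KO, at 2.03 kb split over 2 peaks in replicate 1 and 2.96 kb in replicate 2. H3K4me1 over the gene was called in both wild-type ES libraries (1.16 and 1.92 kb), in EB wild type replicate 1 (1.68 kb) and in none of the 4 KO libraries. The lower of the wild-type ES peaks ranked at the 38.1 percentile of score, so among the higher-scoring 50% of each list 1 gene stayed wild-type-only. Counted over the gene span, and within 10 kb, the wild-type-only genes for H3K4me1 in ES cells were again Ebf2 and Myod1, beside 1.75% and 2.32% of all genes.

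Cidea encodes a lipid droplet protein of brown fat cells (chromosome 18, 67343564 to 67367794). H3K4me2 lay over its lower-numbered end in all 8 lists, over 4.75 and 4.86 kb in wild-type ES cells and 5.15 and 5.40 kb in KO. In EB this domain was 2.79 and 3.30 kb in wild type and 1.81 and 1.96 kb in KO, with no overlap between genotypes. It was narrower in each EB library than in each ES library. H3K4me1 at this end was in 1 of 2 libraries of each genotype in ES cells, 5.19 kb in wild type and 4.63 kb in KO. In EB it was in both wild-type libraries (1.54 and 1.24 kb) and neither KO library. Over the gene span Cidea was likewise wild-type-only for H3K4me1 in EB (4.83% of all genes), and within 10 kb Cidea and Tbx15 were (6.16%). With equal list lengths 0 of the 10 genes were wild-type-only for H3K4me1 in EB.

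**Figure D4:**
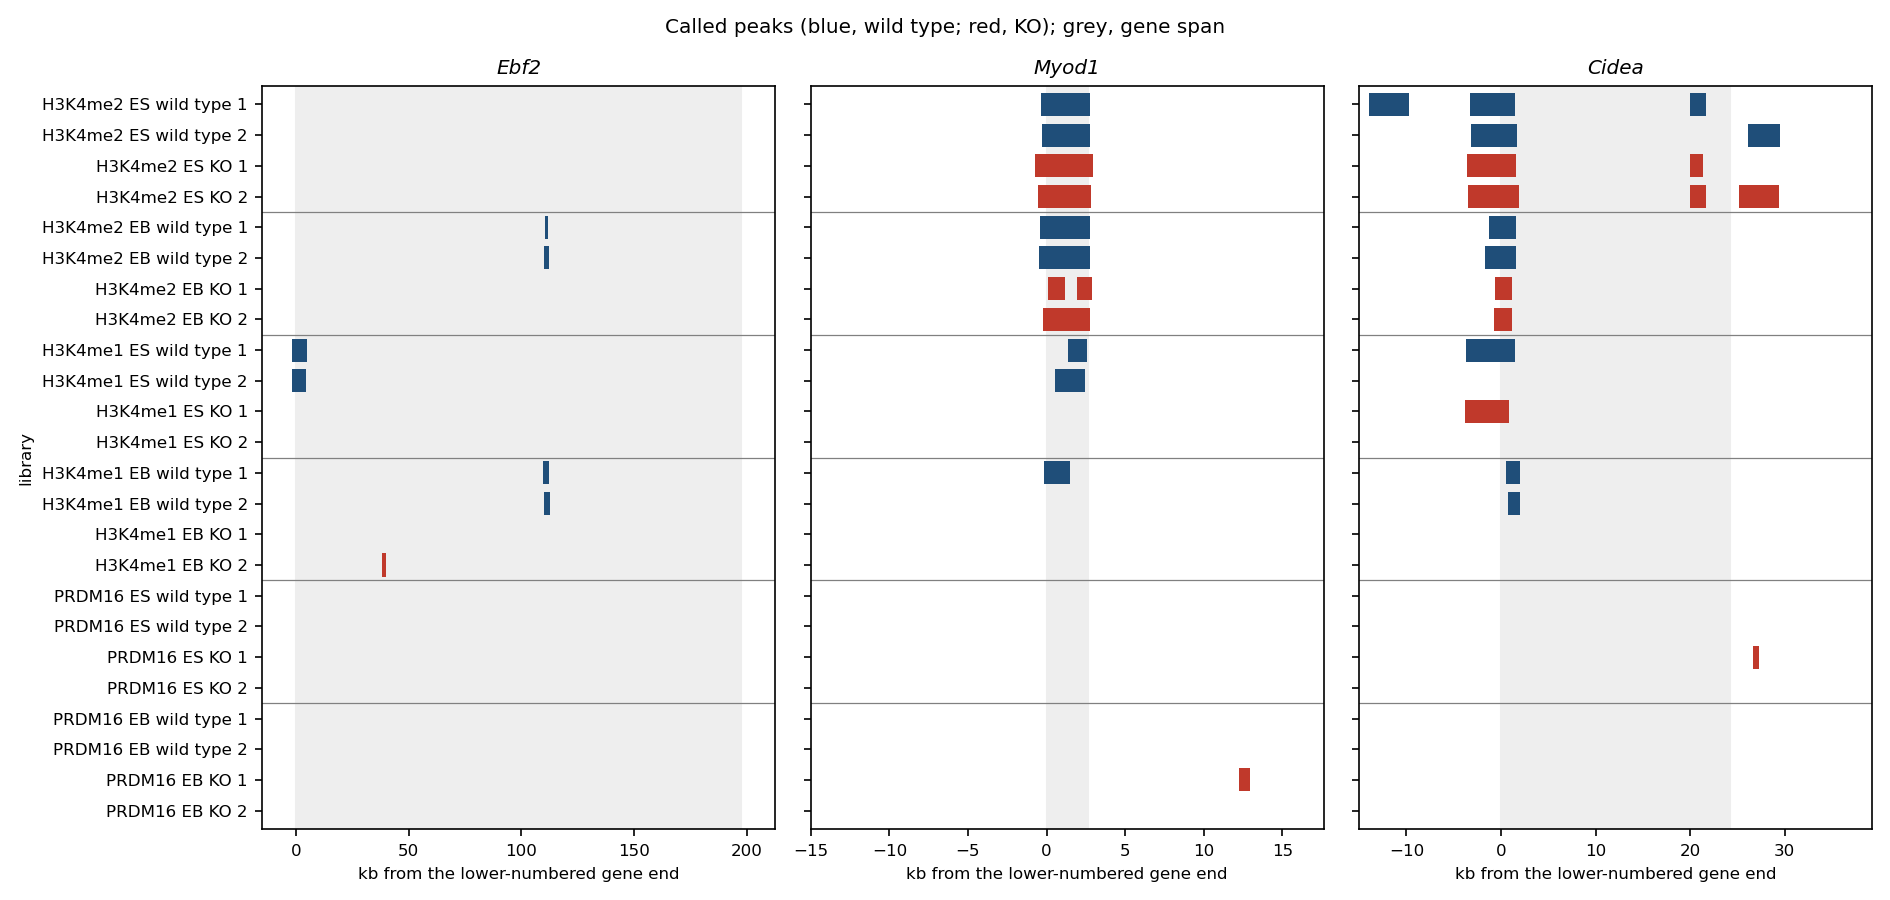
Called peaks at Ebf2, Myod1 and Cidea in the 24 libraries (y axis), by distance in kb from the lower-numbered gene end (x axis); blue bars are wild type, red bars KO, grey the gene span, and the narrowest peaks are widened to stay visible. H3K4me1 at the left end of Ebf2 and over Myod1 appears in both wild-type ES libraries and in no KO ES library, and the PRDM16 peaks beside Cidea and Myod1 are in KO libraries.

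Pparg encodes the nuclear receptor PPARγ, required for all fat cell formation (chromosome 6, 115360879 to 115490404). H3K4me2 over its lower-numbered end, where the first and second listed starts lie, was 2.80 and 2.58 kb wide in wild-type and 3.36 and 2.46 kb in KO ES cells. The EB widths were 3.60 and 4.38 kb in wild type and 3.62 and 3.31 kb in KO. The genotypes overlapped at both stages. In ES cells these peaks ranked at or above the 99.7 percentile of score in each list. H3K4me1 at this end was narrower, from 0.653 to 1.67 kb, and was called in 7 of 8 lists, missing in EB KO replicate 2.

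A further Pparg site lay 8.02 kb beyond the higher-numbered end, at 115498425 to 115503236. H3K4me1 was called there in all 8 lists and H3K4me2 in the 4 ES lists and none of the EB lists. H3K4me1 covered 4.48 and 4.55 kb of the site in KO EB, in 1 peak each, against 2.02 kb in wild type replicate 1. Wild type replicate 2 had 2 peaks there, of 1.19 and 2.07 kb. Inside the gene, at 115479532 to 115482806, both wild-type EB libraries had an H3K4me1 peak (3.28 and 3.08 kb) and neither KO library did. H3K4me2 was called at that internal site in 1 EB library of each genotype, so there the marks differed.

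Ppargc1a encodes PGC-1α, a coactivator of mitochondrial and thermogenic genes. Its gene spans 662 kb on chromosome 5 (51454249 to 52115853), and 15 of the 16 H3K4me lists had a peak at its higher-numbered end (52111338 to 52117505). The H3K4me2 peaks ran over that end in all 8 lists, and the H3K4me1 peaks, in 7 lists, stopped inside the gene, within 2500 bp of it. The only promoter window listed for it lies 544 kb from there within the same gene and had no peak, so the marked end was not the listed start. H3K4me2 at the marked end was 5.01 and 4.71 kb wide in wild-type ES cells, 5.21 and 4.98 kb in KO, 5.87 and 5.61 kb in wild-type EB and 4.91 and 5.79 kb in KO EB. H3K4me1 there was 2.69 and 2.70 kb in wild-type ES cells. In KO ES cells replicate 1 had 2 peaks, of 1.14 and 0.689 kb, and replicate 2 had 1 of 1.97 kb. In EB it was 3.36 and 2.78 kb in wild type, 1.00 kb in KO replicate 1 and absent from KO replicate 2.

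Away from the marked end, H3K4me1 inside Ppargc1a was called in wild-type EB only, whereas H3K4me2 was also called in ES cells. A site at 51552021 to 51554549, 13.2 kb from the listed start, had H3K4me2 in all 4 EB libraries and in 3 of 4 ES libraries. H3K4me1 was called there in both wild-type EB libraries (1.45 and 1.92 kb), in neither KO EB library and in no ES library. A site at 51989458 to 51992273 had H3K4me1 of 2.79 and 2.60 kb in wild-type EB, at the 92.1 to 93.2 percentile of score, and none in the other 6 H3K4me1 lists. H3K4me2 was called there once, in EB wild type replicate 2. Summed over the gene with 10 kb on each side, H3K4me1 covered 7.66 kb ± 0.0870 in wild-type EB and 0.501 kb ± 0.708 in KO EB (SD, n = 2 each), the widest gap between genotypes among the 10 genes for this mark in EB. In ES cells it covered 2.69 kb ± 0.00141 in wild type and 1.90 kb ± 0.0940 in KO (SD, n = 2 each).

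**Figure D5:**
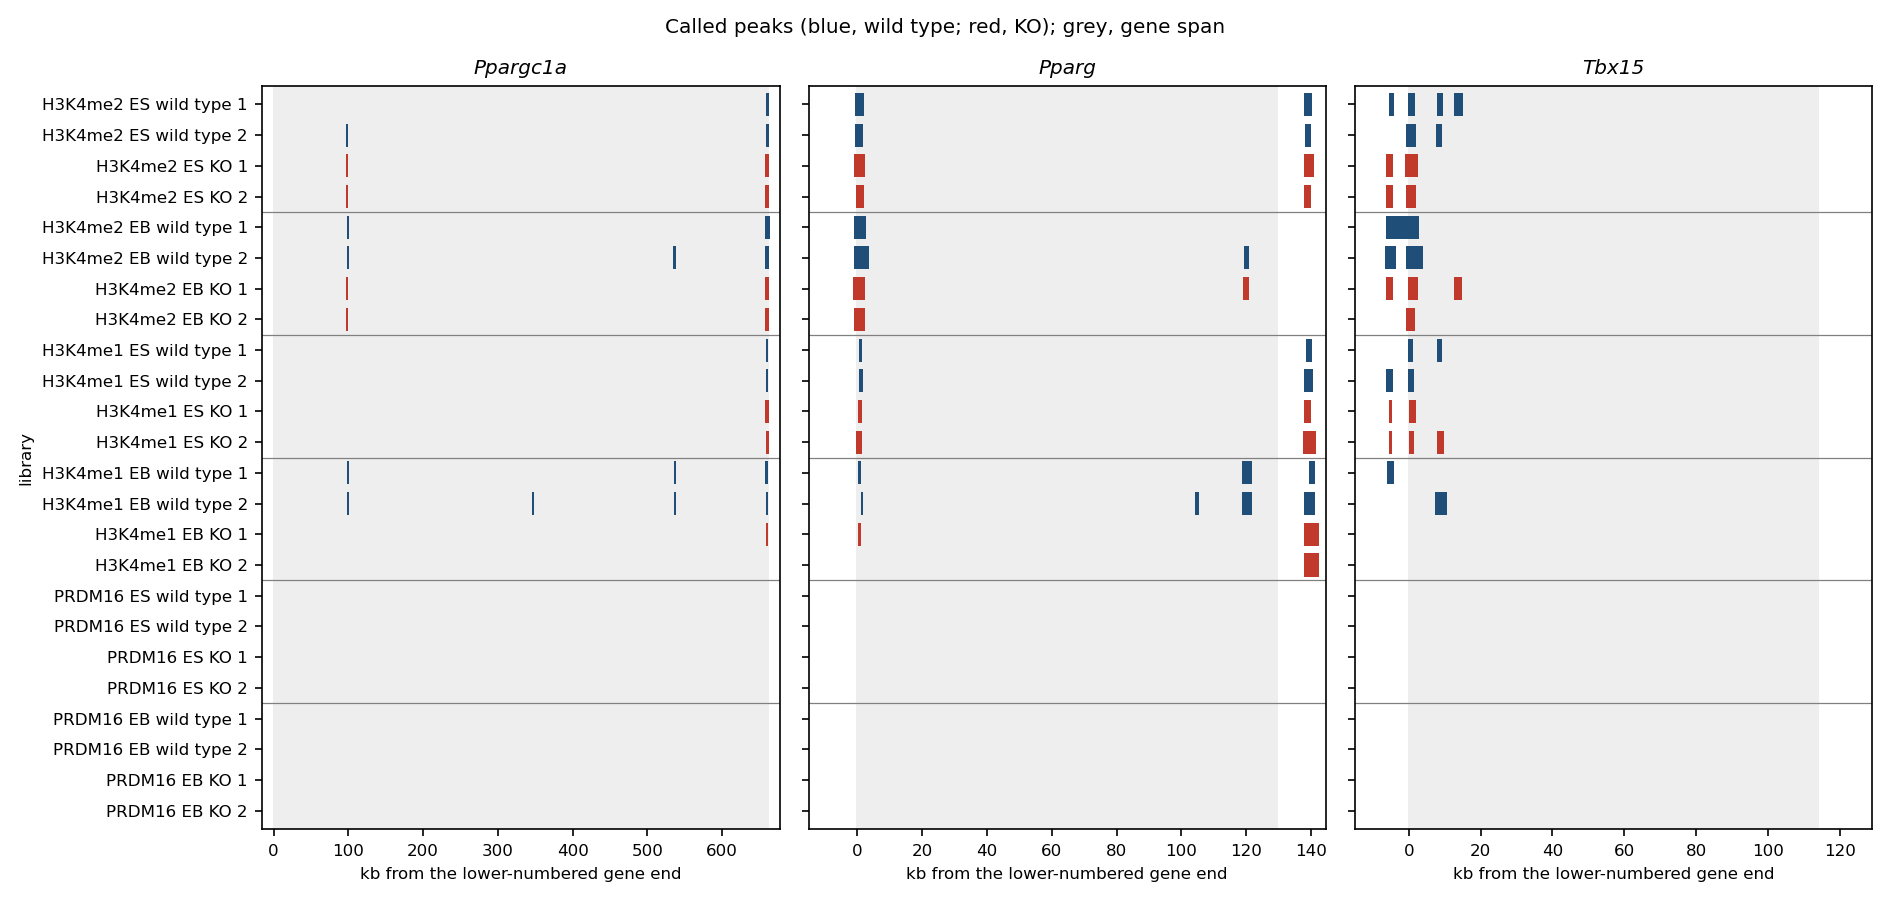
Called peaks at Ppargc1a, Pparg and Tbx15 in the 24 libraries (y axis), by distance in kb from the lower-numbered gene end (x axis); blue bars are wild type, red bars KO, grey the gene span, and the narrowest peaks are widened to stay visible. Away from the gene ends, H3K4me1 peaks inside Ppargc1a and Pparg are in wild-type EB only, Tbx15 has no H3K4me1 peak in KO EB, and no PRDM16 peak lies at these 3 genes.

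Cebpb encodes C/EBPβ, an early factor of fat cell formation that binds PRDM16, and is 1.52 kb long (chromosome 2, 167688915 to 167690432). A single H3K4me2 domain covered the whole gene in all 8 lists, and H3K4me1 was called in 0 of 8. The domain was 5.19 and 5.34 kb wide in wild-type ES cells and 5.50 and 5.09 kb in KO. In EB it was 5.05 and 3.74 kb in wild type and 3.49 and 4.38 kb in KO, so the genotypes overlapped at both stages. Its rank by score within a list was 55.2 to 80 percentile in ES cells and 8.93 to 70.5 percentile in EB, with both KO EB values below both wild-type ones.

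Ucp1, the uncoupling protein that makes brown fat produce heat, lies on chromosome 8 (83290348 to 83298456). It had an H3K4me2 peak over its start in all 8 lists although these cells are not fat cells. The peak was 1.45 and 1.35 kb wide in wild-type ES cells and 2.57 and 1.64 kb in KO, the KO values being higher. Its EB width was 0.972 and 1.46 kb in wild type and 1.11 and 1.49 kb in KO, with overlap. Its score rank was 63.2 to 81 percentile in ES cells, 31.5 to 41.6 in wild-type EB and 2.97 to 25.7 in KO EB. H3K4me1 was called there in 1 of 8 lists, a 0.703 kb peak in ES KO replicate 1 at the 4.66 percentile.

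Elovl3 and Cox7a1 were the genes of the 10 whose H3K4me2 at a gene end was called at one stage and mostly not at the other. Elovl3 encodes a fatty acid elongase of brown fat (chromosome 19, 46131897 to 46135694). A site over its higher-numbered end, 46134406 to 46138552, had both marks in all 4 ES libraries. H3K4me2 there was 3.78 and 3.39 kb wide in wild-type and 3.49 and 3.57 kb in KO ES cells. In EB it was called once for each mark, in KO replicate 1 for H3K4me2 (2.74 kb) and KO replicate 2 for H3K4me1 (1.86 kb). This site also lies within 2500 bp of an end of Pitx3, so its peaks cannot be given to either gene. Both wild-type EB libraries had H3K4me1 farther out, 3.84 kb from the gene end (2.87 and 3.36 kb). By the criterion of all 4 ES lists and no EB list, 0 of the 10 had ES-specific H3K4me2 (1.92% of all genes), because of that single EB peak.

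Cox7a1 encodes a cytochrome oxidase subunit of muscle, heart and brown fat (chromosome 7, 30184171 to 30186030). H3K4me2 was called over it in all 4 EB libraries and in no ES library, which 1 of the 10 genes and 1.6% of all genes showed. The peaks were 3.18 and 5.24 kb wide in wild type. In KO they were narrower, 1.22 and 2.22 kb, and each KO library had a further peak at 30191647 to 30196718 (4.50 and 5.07 kb) that no wild-type library had. The 4 peaks over the gene were weak, at the 3.79 to 13.4 percentile of score, and both sites lie within 2500 bp of an end of Capns1. H3K4me1 was not called there in any list, and 0 of the 10 genes had H3K4me1 in all 4 EB lists and no ES list (0.612% of all genes).

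Tbx15 encodes a T-box transcription factor of brown and certain white fat depots (chromosome 3, 99240348 to 99354260). H3K4me2 lay over its lower-numbered end in all 8 lists, 2.10 and 2.81 kb wide in wild-type ES cells and 3.63 and 2.81 kb in KO. The same domain in EB was wider in wild type, 5.01 and 4.89 kb, than in KO, 2.75 and 2.49 kb, with no overlap. Its score rank ran the other way, at the 8.65 and 43.6 percentile in wild type and 54.2 and 65.6 in KO. H3K4me1 at this end was called in all 4 ES lists, from 1.42 to 1.94 kb, and in no EB list. Of the 10 genes Tbx15 was the 1 with that pattern, shown by 2.96% of all genes. A site inside the gene at 99247735 to 99251028 had H3K4me2 in both wild-type ES libraries and no KO ES library (1.75 and 1.69 kb). These 2 peaks ranked low by score, at the 27 and 23.1 percentile. H3K4me1 was called at that site in 1 ES library of each genotype, at the 16.3 percentile in wild type and 55.9 in KO. Within 10 kb of the gene or in it, both KO EB lists had 0 H3K4me1 peaks, while each wild-type list had 1 (1.97 and 3.29 kb).

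PRDM16 peaks were called within 10 kb of 2 of these genes, and those found were in KO libraries. In ES cells the KO lists of this antibody were the longer, with 586 and 499 peaks against 331 and 191 in wild type. In EB the KO lists held 173 and 187 peaks against 146 and 258. Within 2500 bp of a gene end 1 of the 10 genes had a PRDM16 peak in any of 8 lists (3.24% of all genes), and within 10 kb 2 had one (5.56%). Wild-type libraries had a PRDM16 peak within 10 kb of 0 of the 10 genes. At Cidea, ES KO replicate 1 had a 625 bp peak with a score of 80.09, 2397 bp beyond the higher-numbered end. It lay inside a region where H3K4me2 was called in 1 wild-type and 1 KO ES library (67368717 to 67373059). At Myod1, EB KO replicate 1 had a 718 bp peak with a score of 51.04, 9629 bp from the gene, near the lowest score in the lists. Both libraries are labelled KO, each peak was in 1 of 8 lists, and the source of this signal was not tested.

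At the other genes the nearest PRDM16 peak lay more than 10 kb away. Taking the nearest in any of the 8 lists, it lay 33.9 kb from Ucp1, in ES wild type replicate 2, 63.6 kb from Elovl3, in EB KO replicate 1, and 88.5 kb from Cox7a1, in EB KO replicate 2. It lay 161 kb from Pparg, 348 kb from Ppargc1a, 375 kb from Cebpb, 820 kb from Tbx15 and 1280 kb from Ebf2. The median over the 10 genes was 124 kb, beside 387 kb over all protein-coding genes. Longer genes present a larger target, and the median of each gene's 8 distances was 2618 kb for the 10 and 3311 kb for all genes.

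The KO effect at each gene was tested over both marks and both stages. The statistic was the mean KO minus mean wild-type length covered by peaks in the gene span with 10 kb on each side, summed over the 4 sets of antibody and stage. A two-sided exact permutation test with genotype permuted within each set (smallest possible p 0.00154) was run on all 17491 genes with a peak, with Benjamini-Hochberg adjustment over them. It takes libraries of different antibodies as independent. Of the 10 genes 0 passed an adjusted p of 0.05 in either direction, as did 0% higher and 0% lower of all genes. At an unadjusted p under 0.05, 0 of the 10 were higher (1.76% of all genes) and 2 lower (4.13%), Ebf2 and Tbx15.

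Ebf2 had the lowest p, with a difference of -2485 bp per set (exact permutation p = 0.00926, adjusted p = 0.665). The difference was -1829 bp at Tbx15 (exact permutation p = 0.0355, adjusted p = 0.665), and -2096 bp at Ppargc1a (exact permutation p = 0.0556, adjusted p = 0.665). At Myod1 it was -655 bp (exact permutation p = 0.0741, adjusted p = 0.740). None of these differences passed once all genes were considered. With a smallest possible p of 0.00154 over 17491 genes, no single gene can pass alone, however well its libraries separate. The adjusted p therefore does not say whether the difference at 1 gene exceeds the spread between its libraries. The sign was below 0 at 8 of the 10 genes, all but Ucp1 and Cox7a1, as at 60.5% of all genes. It turned at Tbx15, Pparg and Elovl3 among the higher-scoring 50% of peaks, at Pparg and Elovl3 with equal list lengths, and at Elovl3 and Cox7a1 with 2500 bp flanks. It also turned at Cebpb and Cidea when single libraries were left out, so it held under every alternative at Ucp1, Ppargc1a, Ebf2 and Myod1. The median difference was -459 bp per set over the 10 and -136 bp over all genes.

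Stage was tested in the same way, as EB minus ES. Of the 10 genes 0 passed the adjusted threshold, while 1.25% of all genes were called higher and 12.3% lower in EB. At an unadjusted p under 0.05, 1 of the 10 was higher, Ppargc1a (4.73% of all genes), and 1 lower, Cidea (24.9%). The difference at Cidea was -3757 bp per set (exact permutation p = 0.0139, adjusted p = 0.0705), and its H3K4me2 coverage over the same stretch was lower in each EB library than in any ES library. That coverage was 6.85 and 8.27 kb in wild-type ES cells against 2.79 and 3.30 kb in wild-type EB, and 6.45 and 11.3 kb against 1.81 and 1.96 kb in KO. Without H3K4me1 ES wild-type replicate 2 Cidea passed (exact permutation test, adjusted p = 0.0368), as it did without H3K4me1 ES KO replicate 2 (adjusted p = 0.0377), and over all alternatives its adjusted p was 0.0368 to 0.227. The libraries left out there had 0 kb of H3K4me1 at Cidea, against 5.19 kb in wild-type and 4.63 kb in KO replicate 1. Leaving either out could only widen the difference between stages, so it was no check of it. Ppargc1a had 1798 bp more per set in EB (exact permutation p = 0.0478, adjusted p = 0.159).

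Whether the KO effect was the same at both stages was tested last, as the effect in ES cells minus that in EB. Of the 10 genes 0 passed the adjusted threshold, as did 0% of all genes in each direction. At an unadjusted p under 0.05, 2 of the 10 were higher, Ppargc1a and Pparg, beside 17.3% of all genes, and 0 were lower, beside 0.417%. Summed over both marks, Ppargc1a differed by 8665 bp (exact permutation p = 0.0401, adjusted p = 0.228) and Pparg by 5153.5 bp (exact permutation p = 0.0463, adjusted p = 0.228). The sign at Pparg turned with equal list lengths. At Pparg the peaks beyond the higher-numbered end are cut by the 10 kb limit of the window. The median summed difference over the 10 was 734 bp, beside 1742.5 bp over all genes, and no test of that gap was run.

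Genes of the wider brown fat, fat and muscle lists were examined for the same calls. In wild-type ES cells H3K4me2 marked 11 of 17 other brown fat and thermogenic genes, 6 of 14 general adipocyte genes, 4 of 9 genes for PRDM16 and its partners and 6 of 12 myogenic genes, beside the 51.2% of all genes given above. In wild-type EB the counts were 9, 6, 4 and 5. Lhx8, Otop1, Lpl and Des were marked in both wild-type libraries of every antibody and stage. Calls that differed with genotype were few, and the shares of all genes beside them are those given above for the same sets. Like Cidea, the proton channel gene Otop1 had wild-type-only H3K4me1 in EB (1 of 17 genes of its list, beside 4.14% of all genes). Mecom, the PR domain gene closest to Prdm16, and Pax7, of muscle stem cells, were wild-type-only for H3K4me2 in ES cells (1.22% of all genes), and the myogenic gene Myf6 was KO-only (1.91%). The muscle myosin gene Myh3 was wild-type-only for H3K4me2 in EB (1.64%), and Ppargc1b, the relative of Ppargc1a, and the lipase gene Lipe were KO-only for H3K4me1 in ES cells (1.31%). No PRDM16 peak lay within 10 kb of the other brown fat or the general adipocyte genes, against 1 of 9 partner genes (Zfp516).

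Other genes with the most similar profile were sought by Pearson correlation of log2(covered bp + 1) over the 16 H3K4me libraries, for the 8 of the 10 genes with a peak in at least 8 of them. The closest were Kansl3 for Ucp1 (r = 0.999), Rasgrf1 for Ppargc1a (0.993), Nhsl2 for Pparg (0.839), Zfp970 for Cebpb (1.00), Gm52787 for Cidea (0.999), Phf21a for Elovl3 (0.891), Clrn2 for Tbx15 (0.995) and Car15 for Myod1 (0.999). The next closest were Hpgd, Osbpl2, Glrx, Tvp23b, Chaf1b, Ntn1, Chat and Rela, in the same order. These points share list length, and the values mainly record which libraries have any peak: Ucp1 and Kansl3 each had one in 9 libraries and Cebpb and Zfp970 in 8. None of the 10 genes was among the closest of another.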

How the data were processed

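Coordinates are mm10. Per the submitters' processing notes, HOMER 4.10, deepTools, MACS2, bedtools, SAMtools 1.5 and Bowtie2 were used, in roles not stated. The authors deposited 1 peak list per library, called per library, with positions and a score per peak of at least 50. The authors' score has no stated unit, and its only use here was to rank the peaks of one list among themselves. The mitochondrial peak of each list was set aside.

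Genes came from a RefSeq table without strand or exons, so both gene ends were used and exons, introns and UTRs were not resolved. Listed starts and promoter windows came from the RefSeq promoter table. A gene was marked when a peak overlapped a 2500 bp window at a gene end by 1 bp. Covered length was tested with exact permutation tests in Python 3.11.15 with numpy 2.4.6 and pandas 2.3.3, checked on simulated data. The replicate numbers did not pair the libraries: deviations of same-numbered wild-type and KO libraries correlated at -0.09, -0.03, 0.07 and 0.01 over genes.

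All 10 genes are named. From the wider lists, those wild-type-only or KO-only, or marked in every wild-type set, are named, and for the profiles the 2 closest genes. Any other gene, and each site described, was chosen after its values were seen. The 10 genes and the lists were chosen with earlier results of these data known. Alternatives were other windows, starts only, stricter peaks or overlap, equal list lengths, scaling by list coverage, 1 library series, each library left out and a replicate block.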

Additional observations from a re-analysis of the deposited data

Results flagged for a closer look

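At 3 genes the KO and wild-type libraries did not overlap at either stage and differed in opposite directions, in length covered by 1 mark over the gene span with 10 kb on each side. For Ppargc1a, H3K4me2 coverage was 935.5 bp higher in KO than in wild type in ES cells and fell by 1367 bp in EB, a difference between stages of 2302.5 bp. For Pparg, H3K4me1 coverage was 934 bp higher in KO in ES cells and fell by 3186 bp in EB, a difference of 4120 bp. The Pparg value depends on the 10 kb limit, which cuts peaks beyond the gene: with whole peaks, ES coverage was 2818 and 3883 bp in wild type and 3654 and 5565 bp in KO, which overlap, and EB coverage was 5969 and 8085 bp against 5326 and 4551 bp. For Myod1, H3K4me2 coverage was 477 bp higher in KO in ES cells and fell by 718.5 bp in EB, a difference of 1195.5 bp. The whole lists ran in the same directions, without overlap. H3K4me2 lists covered 65.5 and 59.2 Mb in wild-type ES cells against 78.3 and 81.0 Mb in KO. For EB these were 47.7 and 62.6 Mb against 39.1 and 39.2 Mb. H3K4me1 lists covered 35.4 and 32.7 Mb in wild-type ES cells against 35.7 and 37.1 Mb in KO. For EB these were 31.3 and 26.2 Mb against 17.5 and 13.1 Mb. The difference between stages, and the part of list coverage or of library series in it, was not tested for 1 mark alone. Over both marks the exact permutation test gave adjusted p = 0.228 for Ppargc1a, 0.228 for Pparg and 0.882 for Myod1. The sign of that summed difference was above 0 at these 3 genes, as at 78.6% of all genes. After scaling by list coverage it turned at Myod1 and held at Ppargc1a and Pparg. The share of all genes with the pattern in 1 mark is not given here.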

How the results depend on the processing

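Leave-outs aside, 149 values on the 10 genes stayed within 1.5 times and 31 did not, and of the counts over all genes 26 did and 10 did not. Some of the 149 could not change, since all H3K4me1 libraries were of 1 series and 10 kb was the reported window for PRDM16. A count of 0 that stayed 0 was also scored as unchanged. Listed starts alone, known for 5 genes, gave 3 marked for H3K4me2 in ES cells (each genotype), 4 in EB (each genotype), and 1 for H3K4me1 in each of ES wild type, ES KO and EB wild type, with 0 wild-type-only for H3K4me1 and 0 with PRDM16 in KO. The higher-scoring 50% of peaks gave H3K4me2 marks at 4 genes in EB wild type and 3 in EB KO with 1 KO-only. For H3K4me1 it gave 1 in ES KO, 1 in EB wild type, and 1 (ES) and 0 (EB) wild-type-only, and 1 gene with PRDM16 in KO. Equal list lengths gave H3K4me1 marks at 1 gene in ES KO and 1 in EB wild type, and 1 gene with PRDM16 in KO. For H3K4me1 they left 0 wild-type-only genes in EB, while the 2 in ES cells stayed. With 10 kb, H3K4me1 marked 5 genes in EB wild type and 1 in EB KO, with 2 wild-type-only in EB. The gene span alone gave 1 wild-type-only gene for H3K4me2 in EB. PRDM16 in KO was at 0 genes within 1000 bp or over the span, and at 1 in the largest library series. In the stage test, scaling by list coverage called 1 gene higher (Pparg, exact permutation test, adjusted p = 0.0300, over all alternatives 0.0300 to 0.994) and 2500 bp flanks called 1 lower (Elovl3, adjusted p = 0.0448, range 0.0448 to 0.980). The cause of these changes was not tested.

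Leaving out each library in turn gave ranges of 1 to 2 genes for H3K4me1 marks in EB KO, 0 to 1 for KO-only H3K4me2 in EB and KO-only H3K4me1 in ES cells and in EB, 1 to 3 for wild-type-only H3K4me1 in EB, 1 to 2 for PRDM16 in KO and 0 to 1 for genes called lower in the stage test. The libraries left out at the changed values were H3K4me1 EB KO replicates 1 and 2, EB wild-type replicate 2 and ES KO replicate 2, H3K4me2 EB KO replicate 2, PRDM16 ES KO replicate 1 and EB KO replicate 1, and in the stage test H3K4me1 ES wild-type and ES KO replicates 2. With 1 library left in a group, 1 peak is enough to mark a gene. With the replicate block, 0 of the 10 genes passed in any of the 3 tests. The block allows fewer assignments, so its smallest possible p is larger than 0.00154. An adjusted p under 0.05 then needs a large number of genes at that smallest p. Counts of 0 with the block, here and over all genes, are therefore no evidence against a difference. Over all genes the stage test called 218 higher and 2148 lower, against 0 and 0 with the replicate block, with the higher-scoring 50% and with equal lengths, 632 and 992 after scaling by list coverage and 99 and 1423 in the largest library series. At unknown depth, absence of a peak cannot be told apart from a weak one.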
